A study of Mus musculus with 8 samples.

Results

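The sarcomeric myosin heavy chains are the motor proteins of the thick filament, and different genes encode the embryonic, neonatal, adult fast and slow or cardiac forms. Here 8 of them (Myh1, Myh2, Myh3, Myh4, Myh6, Myh7, Myh7b and Myh8) were followed through one RNA-seq comparison of newborn mouse muscle. They were taken from the table by gene symbol, as a family picked with earlier results of these data known, and make up 8 of the 23336 genes in the deposited count table. All 8 passed the filter on low counts that left 15241 genes to test.

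The tissue was skeletal muscle of female C57BL/6 pups at postnatal day 2. One group of 4 mice carried ΔDMR1-U2, a deletion at the Igf2 locus, and the other 4 mice were wild-type, so the deletion was the one labelled difference between the groups. The sources used here state neither the parent that passed on the deletion nor the muscles that were dissected, so neither is given here. The mice of each group bear the labels 1A, 1B, 2 and 3, and what separates A from B is not explained.

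Each myosin motor pairs a globular head, which binds actin and splits ATP, with a long coiled rod that packs into the filament. The head largely sets how fast a fibre contracts, and muscle fibres are classed by the heavy chain they hold. In rodent limb muscle the embryonic chain Myh3 appears first and the neonatal chain Myh8 follows, and both give way after birth to the adult fast chains Myh2 (type 2A), Myh1 (type 2X) and Myh4 (type 2B). Slow fibres use Myh7, which is also the beta chain of the heart, while Myh6 is the alpha chain of the heart.

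In mm10 coordinates, 5 of the 8 genes lie in one row on the plus strand of chromosome 11, over 230 kb in the order Myh3 (chr11:67078300-67102291), Myh2 (chr11:67171027-67197517), Myh1 (chr11:67200052-67224575), Myh4 (chr11:67238029-67260446) and Myh8 (chr11:67277124-67308634). The heart pair lies side by side on the minus strand of chromosome 14, with Myh6 at chr14:54941921-54966927 and Myh7 at chr14:54970684-54994626. Myh7b stands alone at chr2:155611212-155634307 on the plus strand. All values below are counts over a whole gene, and coding sequence is so alike among these genes that a short read may not tell them apart.

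The stretch of coding sequence most alike among 6 of the isoforms is shown because it marks the limit of what reads can assign. Its 60 bases are the same in 56 alignment columns, and capitals mark the 4 columns that differ. It covers coding bases 1426 to 1485 of Myh3, 1432 to 1491 of Myh8, Myh1, Myh2 and Myh4, and 1423 to 1482 of Myh7, read from the mm10 transcripts of GENCODE release M21.
Myh3: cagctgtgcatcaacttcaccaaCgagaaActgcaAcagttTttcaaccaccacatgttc
Myh8: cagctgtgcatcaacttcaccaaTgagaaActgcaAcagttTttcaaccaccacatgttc
Myh1: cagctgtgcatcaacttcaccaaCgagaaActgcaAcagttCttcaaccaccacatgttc
Myh7: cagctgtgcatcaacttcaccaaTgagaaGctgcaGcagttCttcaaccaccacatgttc
Myh2 and Myh4 carry the same letters as Myh8 across this stretch.

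A window of the same size in the least alike part of the alignment shows the opposite case. Here 17 columns are the same in all 6 isoforms and 43 differ, again in capitals, at coding bases 1831 to 1890 of Myh3, 1837 to 1896 of Myh8, Myh1, Myh2 and Myh4, and 1828 to 1887 of Myh7.
Myh3: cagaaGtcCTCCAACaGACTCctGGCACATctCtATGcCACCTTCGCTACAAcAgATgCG
Myh8: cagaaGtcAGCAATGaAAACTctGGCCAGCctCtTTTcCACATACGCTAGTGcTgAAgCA
Myh1: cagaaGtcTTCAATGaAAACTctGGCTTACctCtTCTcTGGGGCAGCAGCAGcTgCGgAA
Myh2: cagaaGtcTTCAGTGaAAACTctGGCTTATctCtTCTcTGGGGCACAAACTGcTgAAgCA
Myh4: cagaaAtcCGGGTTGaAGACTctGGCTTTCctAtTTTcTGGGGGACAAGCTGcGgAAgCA
Myh7: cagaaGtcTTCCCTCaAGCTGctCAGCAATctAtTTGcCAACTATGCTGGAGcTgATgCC

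Over whole coding sequences, Myh6 and Myh7 were the most alike pair, with 91.7% identical bases. Among the fast genes, Myh1 and Myh2 shared 91.0%, Myh1 and Myh4 shared 90.1%, and Myh2 and Myh4 shared 88.2%. The neonatal gene Myh8 came close to the fast genes, at 89.2% with Myh1, whereas the embryonic gene Myh3 was 80.8% identical to Myh8. Of all 100-base stretches of a coding sequence, those found unchanged in a transcript of another of the 8 isoforms made up 12.0% for Myh7 and for Myh6, 9.87% for Myh1, 9.57% for Myh2, 5.48% for Myh8, 3.99% for Myh4, and 0% for Myh3 and Myh7b. With Myh13, a further sarcomeric gene next to Myh8, counted as well, the share was 10.1% for Myh1, 7.00% for Myh8 and 1.19% for Myh3, and the other values were the same. How such reads were treated when the authors counted them is not known here. The counts of the fast genes and of Myh6 and Myh7 are therefore uncertain. These shares do not bound that uncertainty, because the isoforms differ widely in level. Of the 100-base stretches of Myh8, the most abundant isoform, 2.78% were found in Myh1, 3.57% in Myh2 and 1.52% in Myh4. Myh1, Myh2, Myh6, Myh7 and Myh7b also overlap annotated genes on the opposite strand, and the strand setting is not stated either, so reads of both strands may be counted together. Myh3, Myh4 and Myh8 overlap none.

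Libraries held 16084413 to 26913636 counts in genes. As a check of the labels, Igf2as, the antisense transcript of the Igf2 locus, had 100 to 122 counts in the ΔDMR1-U2 libraries and 1113 to 1868 in wild-type. ΔDMR1-U2 library 1A is labelled female but its count of Xist, a noncoding RNA made from the silent X chromosome, was 49, against at least 21122 in each other library, and 4 Y-linked genes had at most 6 counts in any library. ΔDMR1-U2 library 1B stood apart on the first principal component, which held 42.1% of the variance, at -34.6 against -14.1 to 17.4. Fold changes of the isoforms, and the shares that moved by over 1.5 times, are therefore also given without both of these libraries. Levels are given as CPM, which are counts rescaled for the depth of each library with edgeR's default TMM factors. Groups were compared with edgeR's quasi-likelihood test, a gene was called at an adjusted p under 0.05 over all 15241 genes, and 172 genes (1.13%) were called.

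None of the 8 isoforms was called by edgeR, against 1.13% of all tested genes. At an unadjusted p under 0.05, 4 of the 8 (Myh1, Myh2, Myh3 and Myh4) passed, against 21.3% of all tested genes, and DESeq2 called Myh3 and Myh4, against 6.15% of the genes it tested. CPM overlapped between the groups for each of the 8, while 12.8% of all tested genes did not overlap (6.38% lower and 6.40% higher in ΔDMR1-U2). Log2 fold changes of ΔDMR1-U2 over wild-type were negative for 5 isoforms and positive for 3, with a median of -0.08, beside a median of -0.00 and a negative share of 50.2% over all tested genes. In whole muscle, fewer fibres of a type and less RNA per fibre cannot be told apart.

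**Figure D1:**
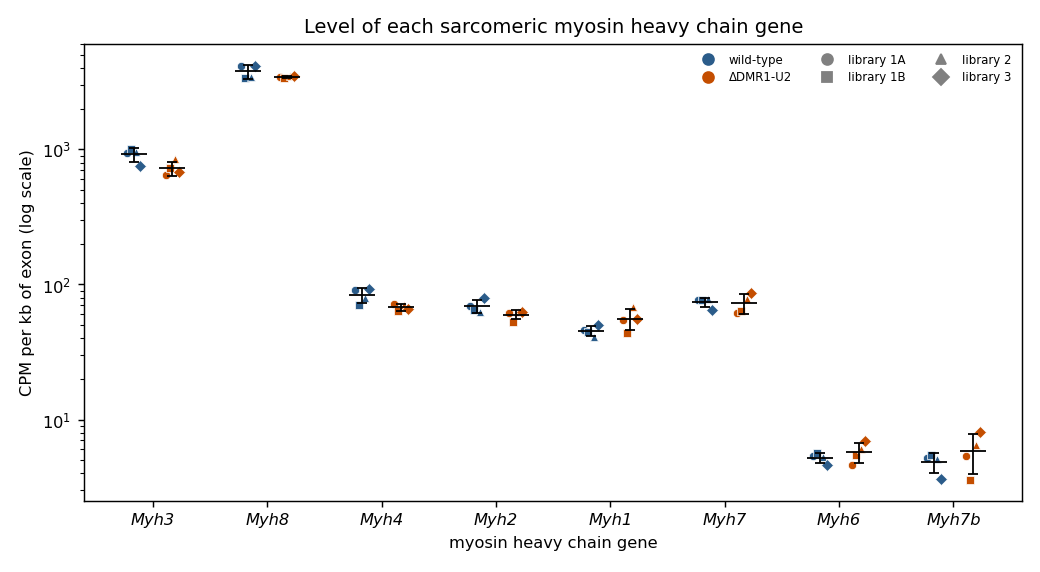
Level of each isoform in CPM per kb of exon on a log axis, one point per library, with the mean and SD (bars) of each group of 4. Myh8 lies above Myh3 in every library, Myh4, Myh2, Myh1 and Myh7 lie together well below both, and Myh6 and Myh7b lie at the bottom.

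Compared per length of exon, the neonatal Myh8 stood at a mean of 3619 CPM per kb over all 8 libraries and the embryonic Myh3 at 822, and Myh8 was the higher in 8 of 8 libraries. Below a gap of 10.9-fold came Myh4 (75.5 CPM per kb), Myh7 (73.2), Myh2 (64.4) and Myh1 (50.5). The ranges over libraries overlapped for each neighbouring pair within these 4, although inside a library Myh7 was above Myh2 in 7 of 8 and Myh2 above Myh1 in 7 of 8. Myh4 was above Myh7 in 4 of 8. Myh6 (5.48 CPM per kb) and Myh7b (5.35) came last, 9.21-fold below Myh1, and their ranges also overlapped, with Myh6 the higher in 5 of 8 libraries.

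Myh8, the neonatal chain, had 27040, 26686, 27478 and 27372 CPM in ΔDMR1-U2 libraries 1A, 1B, 2 and 3. Wild-type libraries 1A, 1B, 2 and 3 had 32888, 26455, 27111 and 32837 CPM. Wild-type 1A and 3 were above every ΔDMR1-U2 library and wild-type 1B was below them all, so the groups overlapped. The means were 27144 ± 358 and 29823 ± 3520 CPM (SD, n = 4 each). The log2 fold change in edgeR was -0.14 (SE 0.10, adjusted p = 0.455), and -0.12 without ΔDMR1-U2 1A and 1B.

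Myh3, the embryonic chain, had 3902, 4400, 5117 and 4151 CPM in ΔDMR1-U2, in the same library order as above, and 5729, 6116, 5845 and 4576 CPM in wild-type. Wild-type 1A, 1B and 2 were above every ΔDMR1-U2 library, and wild-type 3 lay inside the ΔDMR1-U2 range. Means were 4393 ± 524 and 5566 ± 680 CPM (SD, n = 4 each). The log2 fold change was -0.34 (SE 0.11) and missed the threshold in edgeR (adjusted p = 0.133), while DESeq2 gave -0.34 with an adjusted p of 0.0417. It was negative in each of 8 edgeR fits that left out 1 library, from -0.43 to -0.29, with adjusted p between 0.0627 and 0.283, and was -0.27 without ΔDMR1-U2 1A and 1B together.

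The ratio of Myh8 to Myh3 within a library sets the neonatal against the embryonic chain with no scaling between libraries. It was 6.93, 6.07, 5.37 and 6.59 counts of Myh8 per count of Myh3 in the ΔDMR1-U2 mice and 5.74, 4.33, 4.64 and 7.18 in wild-type. The highest and the lowest of all 8 ratios were both wild-type. On the log2 scale the group means were 2.63 ± 0.16 and 2.42 ± 0.33 (SD, n = 4 each), a difference of 0.21 within the spread of the libraries (2-sided exact permutation p = 0.314). With 4 against 4 libraries, this test cannot give a p below 0.0286. The difference ran from 0.11 without wild-type 1B to 0.35 without wild-type 3.

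Among the adult fast chains, Myh4, the type 2B chain of the fastest fibres, had 432, 380, 422 and 396 CPM in the ΔDMR1-U2 mice and 548, 421, 480 and 554 CPM in wild-type. The groups overlapped through wild-type 1B alone, which lay below ΔDMR1-U2 1A and 2. Means were 408 ± 24.0 and 501 ± 62.9 CPM (SD, n = 4 each). The log2 fold change was -0.30 (SE 0.09) with an edgeR adjusted p of 0.118, and DESeq2 gave -0.30 with an adjusted p of 0.0427. Across the fits that left out 1 library the value stayed between -0.37 and -0.25, and edgeR called it in none of them (adjusted p from 0.108 to 0.283). It was -0.29 without ΔDMR1-U2 1A and 1B together.

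Myh2, the type 2A chain, had 372, 322, 381 and 380 CPM in the ΔDMR1-U2 mice and 422, 390, 379 and 487 CPM in wild-type. Wild-type 2 lay within the ΔDMR1-U2 range, and the other wild-type libraries lay above it. Its log2 fold change was -0.21 (SE 0.09, edgeR adjusted p = 0.226), from means of 363 ± 28.2 and 419 ± 48.4 CPM (SD, n = 4 each). Without ΔDMR1-U2 1A and 1B it was -0.14, and without wild-type 3 it was -0.13.

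Myh1, the type 2X chain, had a fold change of the opposite sign to both of its neighbours. It had 348, 279, 433 and 352 CPM in the ΔDMR1-U2 mice and 293, 284, 259 and 318 CPM in wild-type. ΔDMR1-U2 1B was within the wild-type range, and the other ΔDMR1-U2 libraries were above it. The means were 353 ± 63.1 and 288.5 ± 24.6 CPM (SD, n = 4 each), a log2 fold change of 0.29 (SE 0.12, edgeR adjusted p = 0.197). Without ΔDMR1-U2 1A and 1B the value was 0.44 (edgeR adjusted p = 0.134), and without ΔDMR1-U2 2 alone it was 0.18 (edgeR adjusted p = 0.312).

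Myh7, the slow chain, had 395, 406, 496 and 554 CPM in the ΔDMR1-U2 mice and 487, 488, 494 and 416 CPM in wild-type. ΔDMR1-U2 libraries were the 2 lowest and the 2 highest of all 8. The means of 463 ± 75.7 and 471 ± 36.9 CPM (SD, n = 4 each) differed by less than that spread, with a log2 fold change of -0.03 (SE 0.11, edgeR adjusted p = 0.914). The value was 0.15 without ΔDMR1-U2 1A and 1B and 0.0018 without wild-type 2, so its sign changed with the libraries left out.

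The heart chain Myh6 had 28.3, 33.6, 37.1 and 42.8 CPM in the ΔDMR1-U2 mice and 33.2, 35.1, 32.4 and 28.3 CPM in wild-type. Myh7b, an ancient slow-type chain that is kept at low levels in mammalian muscle, had 33.0, 22.0, 40.2 and 49.5 CPM and 31.9, 33.7, 31.3 and 22.3 CPM in the same order. Both groups overlapped for each gene, and ΔDMR1-U2 2 and 3 were the highest libraries for both. The log2 fold change was 0.14 (SE 0.12, edgeR adjusted p = 0.533) for Myh6 and 0.28 (SE 0.21, edgeR adjusted p = 0.471) for Myh7b. Without ΔDMR1-U2 1A and 1B, Myh6 was 0.31 (edgeR adjusted p = 0.258) and Myh7b 0.59 (edgeR adjusted p = 0.156). Without ΔDMR1-U2 3 alone, Myh6 was 0.04 (edgeR adjusted p = 0.882) and Myh7b 0.09 (edgeR adjusted p = 0.833). Leaving out wild-type 3 gave 0.08 and 0.16. Markers of heart muscle, summed over 8 genes, came to 3.89 to 5.92 CPM in the ΔDMR1-U2 mice and 3.70 to 4.41 CPM in wild-type, and 3 of the 8 passed the filter. In any library Tbx5 had 6 to 59 counts, Hand2 10 to 41, Tnni3, the troponin I of the heart, 15 to 26, Nppa 4 to 21 and Gata4 3 to 11. The remaining 3 were at or near 0, with 0 to 5 counts of Myl7, the atrial light chain, 0 to 2 of Nppb and 0 to 1 of Nkx2-5. Their part in the Myh6 and Myh7b values was not tested.

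**Figure D2:**
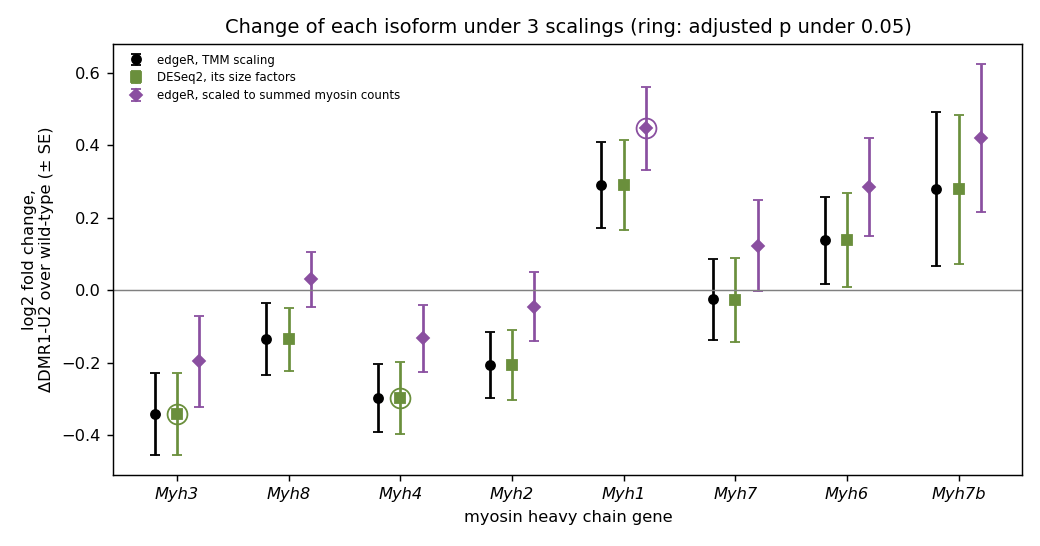
Log2 fold change of ΔDMR1-U2 over wild-type for each isoform with its standard error, from edgeR, from DESeq2, and from edgeR with libraries scaled to their summed myosin heavy chain counts; rings mark an adjusted p under 0.05. Within edgeR, scaling to the summed counts shifts every value upward, moves Myh8 and Myh7 from below 0 to above it, and adds a ring on Myh1, while the rings on Myh3 and Myh4 are from DESeq2.

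The authors' deposited table, read in the same direction, gave the isoforms no adjusted p below 0.332 (Myh4), with unadjusted p-values of 0.0138 for Myh4, 0.0397 for Myh3 and 0.0608 for Myh1. Over all genes with a value, 0.887% had an adjusted p under 0.05 in the authors' deposited table, and 9.40% had an unadjusted p under 0.05.

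The 8 isoforms together took 3.36%, 3.34%, 3.44% and 3.37% of all counts in the ΔDMR1-U2 mice and 3.88%, 3.45%, 3.44% and 3.81% in wild-type. The groups did not overlap, but only narrowly, with 3.438% in ΔDMR1-U2 2 beneath 3.443% in wild-type 2. Means were 3.38% ± 0.0419 and 3.65% ± 0.232 (SD, n = 4 each), and the difference of -0.268 percentage points had a 2-sided exact permutation p of 0.0286, the smallest that 4 against 4 allows. It is 1 of 13 exact tests run on sums, shares and the ratio, with no correction for their number. Among single tested genes, CPM of the groups did not overlap for 12.8% (6.38% lower in ΔDMR1-U2). That background was not computed for raw shares of all counts. On the CPM scale the summed levels overlapped, at 32528 to 34404 CPM in the ΔDMR1-U2 mice and 34223 to 40434 CPM in wild-type, and the exact permutation p was 0.0571. Myh8 makes up most of this sum.

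The share of an isoform in the summed counts of the 8 does not depend on how libraries are scaled. By this measure Myh8 held 83.1%, 82.0%, 79.9% and 82.2% in the ΔDMR1-U2 mice and 81.3%, 77.3%, 78.3% and 83.7% in wild-type. Myh3 held 12.0%, 13.5%, 14.9% and 12.5% in the ΔDMR1-U2 mice and 14.2%, 17.9%, 16.9% and 11.7% in wild-type. For both, wild-type 3 sat at one end of the range and wild-type 1B at the other. Differences of 1.64 percentage points for Myh8 (exact permutation p = 0.314) and -1.93 for Myh3 (exact permutation p = 0.286) were within the spread. With 1 library left out they ran from 0.693 to 2.82 for Myh8 and from -3.09 to -1.02 for Myh3, nearest 0 without wild-type 1B and farthest without wild-type 3. They were 0.885 and -1.47 without ΔDMR1-U2 1A and 1B. Counting error was small, since the 95% Wilson interval of a share was at most 0.103 percentage points to either side, and this covers counting error only.

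Both developmental chains together held 94.7% to 95.6% of the sum in the ΔDMR1-U2 mice and 95.2% to 95.5% in wild-type. Their means were 95.0% ± 0.407 and 95.3% ± 0.164 (SD, n = 4 each, exact permutation p = 0.229). The adult fast chains held 3.38% ± 0.262 and 3.25% ± 0.145 (SD, n = 4 each, exact permutation p = 0.429). Slow and cardiac chains held 1.61% ± 0.253 and 1.45% ± 0.210 (SD, n = 4 each, exact permutation p = 0.314). None of these grouped shares differed beyond the spread of the libraries. Without ΔDMR1-U2 1A and 1B the differences were -0.590 percentage points for the developmental chains, 0.234 for the fast and 0.356 for the slow and cardiac chains, in place of -0.288, 0.129 and 0.160.

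**Figure D3:**
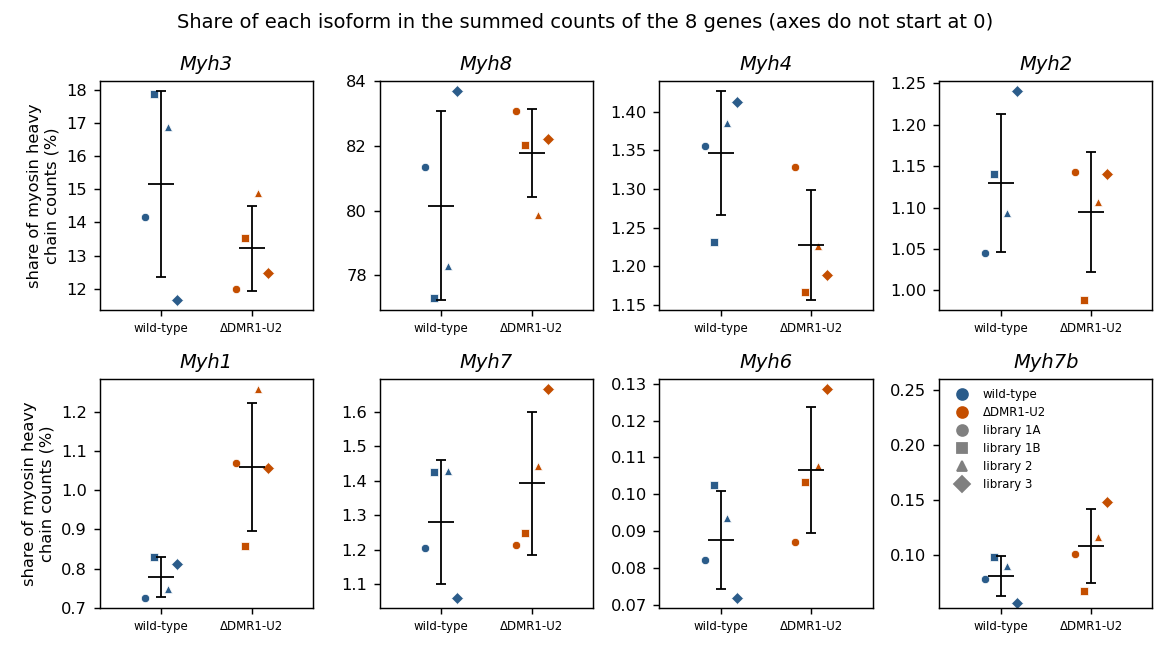
Share of each isoform in the summed counts of the 8, in percent, one panel per isoform and one point per library, with the mean and SD (bars) of each group of 4; the axes do not start at 0. The Myh1 share is higher in each ΔDMR1-U2 library than in any wild-type library, and the other shares overlap between the groups.

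Inside the adult fast share, Myh1 was the isoform whose share did not overlap between the groups. It held 1.07%, 0.857%, 1.26% and 1.06% in the ΔDMR1-U2 mice and 0.725%, 0.830%, 0.746% and 0.811% in wild-type, with means of 1.06% ± 0.164 and 0.778% ± 0.0502 (SD, n = 4 each). The difference was 0.282 percentage points (2-sided exact permutation p = 0.0286, the smallest possible). The closest libraries, ΔDMR1-U2 1B at 0.857% (95% Wilson interval 0.834 to 0.881) and wild-type 1B at 0.830% (0.812 to 0.849), had intervals that overlapped. Over all tested genes, counts divided by the summed isoform counts did not overlap for 15.5%, so 1 of 8 isoforms is near the background. With library sizes set by the summed isoforms instead of the TMM factors, Myh1 was called by edgeR (log2 fold change 0.45, SE 0.11, adjusted p = 0.0422). That scaling called 4.50% of the genes (4.07% higher in ΔDMR1-U2) and moved the median log2 fold change of all tested genes to 0.15, beside which the 0.45 of Myh1 is to be read.

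Myh4 held 1.33%, 1.17%, 1.23% and 1.19% of the sum in the ΔDMR1-U2 mice and 1.36%, 1.23%, 1.39% and 1.41% in wild-type. All but wild-type 1B were above every ΔDMR1-U2 library, and the difference of -0.118 percentage points had an exact permutation p of 0.0571. The remaining single isoforms had exact permutation p-values of 0.543 (Myh2), 0.40 (Myh7), 0.143 (Myh6) and 0.229 (Myh7b), and their shares overlapped between the groups. Without ΔDMR1-U2 1A and 1B the difference went from 0.113 to 0.274 percentage points for Myh7, from 0.0191 to 0.0306 for Myh6, from 0.0274 to 0.0516 for Myh7b and from -0.0352 to -0.0063 for Myh2.

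Ratios between isoforms inside a library show the same values without any scaling, and were looked at after the levels were known, so they are described and not tested. In counts of Myh1 per count of Myh4, ΔDMR1-U2 had 0.805, 0.734, 1.03 and 0.888 and wild-type had 0.535, 0.674, 0.539 and 0.574. Per count of Myh2, Myh1 had 0.936, 0.867, 1.14 and 0.927 in the ΔDMR1-U2 mice and 0.694, 0.728, 0.683 and 0.654 in wild-type. Neither ratio overlapped between the groups. Myh2 per Myh4, in contrast, was 0.847 to 0.958 in the ΔDMR1-U2 mice and 0.770 to 0.926 in wild-type, which overlap.

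**Figure D4:**
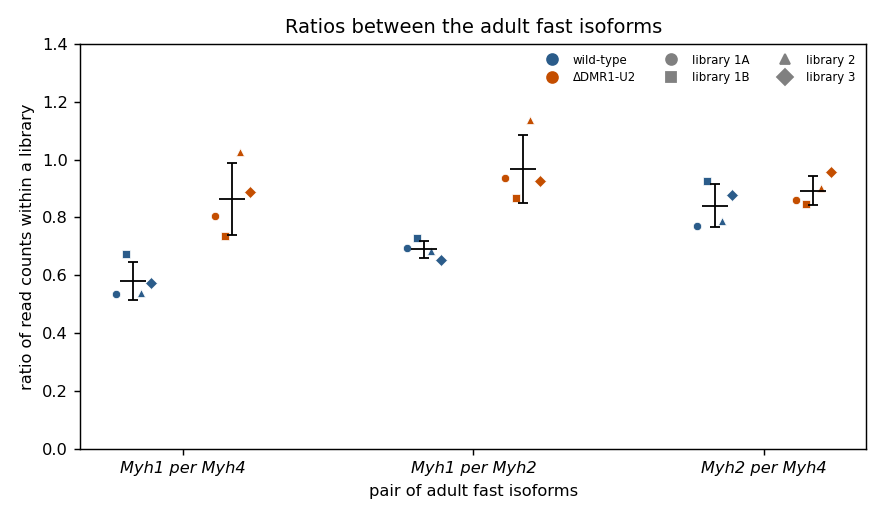
Counts of one fast isoform per count of another within each library, for Myh1 per Myh4, Myh1 per Myh2 and Myh2 per Myh4, one point per library with the mean and SD (bars) of each group of 4. Both ratios with Myh1 lie higher in every ΔDMR1-U2 library than in any wild-type library, and Myh2 per Myh4 overlaps.

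In all, 4 of the 28 isoform pairs had ratios that did not overlap, beside 12.4% of all pairs of tested genes. Besides the Myh1 pairs, with log2 differences of 0.57 against Myh4 and 0.48 against Myh2, these were Myh3 with Myh6 (-0.47) and Myh3 with Myh7 (-0.30). Myh1 and Myh2 share 7.91% of their 100-base stretches, so reads between them are among those that may be assigned uncertainly. The same holds for reads of the far more abundant Myh8. Of its 100-base stretches, 2.78% are found in Myh1, 3.57% in Myh2 and 1.52% in Myh4.

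The fast genes lie next to each other, and the 100 bases from 120 to 21 before the RefSeq start of each are shown because the fold changes of these neighbours differed in sign. They are RefSeq promoter sequences on the plus strand of mm10. RefSeq places the start of Myh2 where the gene coordinates above do, but that of Myh1 at 67200102, inside those coordinates, and that of Myh4 at 67237812, upstream of them. Capitals mark TATAAA, searched on both strands.
Myh2 (chr11:67170907-67171006): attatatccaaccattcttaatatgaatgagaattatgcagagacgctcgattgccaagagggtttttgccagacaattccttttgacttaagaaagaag
Myh1 (chr11:67199982-67200081): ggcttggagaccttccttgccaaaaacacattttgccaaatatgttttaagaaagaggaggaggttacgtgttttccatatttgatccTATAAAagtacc
Myh4 (chr11:67237692-67237791): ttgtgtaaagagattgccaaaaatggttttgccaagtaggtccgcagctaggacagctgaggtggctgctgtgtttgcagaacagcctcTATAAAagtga
The match starts 32 bases before the RefSeq start of Myh1 and 31 before that of Myh4, and Myh2 has none in this window. All 8 isoforms had an entry and Myh7 had 2, which makes 9 windows. TATAAA was in 4 of the 9, beside 5.66% of 32851 RefSeq promoter windows of the same length. CANNTG, the E-box bound by muscle regulatory factors such as MyoD, was in 5 of the 9, both of those of Myh7 included, and in 35.04% of all windows. Such matches describe letters only.

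Slow and cardiac genes of the family host microRNAs in their introns. The mature sequences, from RefSeq, are shown with the seed (bases 2 to 8) in capitals because 2 of them share it.
mmu-miR-208a-3p, within Myh6: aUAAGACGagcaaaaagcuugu
mmu-miR-208b-3p, within Myh7: aUAAGACGaacaaaagguuugu
mmu-miR-499-5p, within Myh7b: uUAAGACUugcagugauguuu
Rows for their precursors were in the table, with 0 to 4 counts in every library, which is too few for a comparison.

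Between Myh3 and Myh2 lies 2310065F04Rik, a noncoding gene on the minus strand (chr11:67112461-67120080), named here after its values were seen. It had 3.57, 3.79, 2.92 and 3.01 CPM in the ΔDMR1-U2 mice and 6.16, 4.21, 4.63 and 4.50 CPM in wild-type. The groups did not overlap, as for the 6.38% of tested genes that lay lower, and the log2 fold change of -0.54 (SE 0.16) was not called by edgeR (adjusted p = 0.102). The next sarcomeric gene of the row, Myh13, the chain of eye and laryngeal muscle, had 135 ± 6.04 and 143 ± 5.69 CPM (SD, n = 4 each; log2 fold change -0.08, edgeR adjusted p = 0.453). Its counts were 0.443% to 0.528% of those of Myh8 over the libraries, and 2.14% of the 100-base stretches of Myh8 are found in Myh13. The part of Myh8 reads in the Myh13 counts was not tested.

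Genes that work with these motors were read from lists, each with 0.512% of all tested genes called higher and 0.617% called lower as the background. For the other counts given with each list, 21.3% of all tested genes had an unadjusted p under 0.05 in edgeR. A negative log2 fold change was found for 50.2% of them. Of 11 partners of the fast fibre, none was called higher and 1 was called lower, 8 passed an unadjusted p under 0.05, and 11 of 11 log2 fold changes were negative, with a median of -0.28. The called gene was Tnnc2, the calcium sensor troponin C of fast fibres, which was 2491 ± 82.7 CPM in the ΔDMR1-U2 mice and 3255 ± 137 CPM in wild-type (SD, n = 4 each). Its log2 fold change was -0.39 (SE 0.07, edgeR adjusted p = 0.0348). The call was kept in 2 of the 8 fits that left out 1 library, those without ΔDMR1-U2 1A or 2, although the value stayed between -0.41 and -0.36. Tnnc2 overlaps another gene, Ube2c, on the opposite strand. Its edgeR adjusted p was 0.125 with the labels 1A to 3 as a block.

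Of 11 partners of the slow fibre, 0 were called, 2 passed the unadjusted threshold, 7 were negative and 4 positive, and the median was -0.15. The most abundant were Atp2a2, the calcium pump of slow and heart muscle (0.03), and Casq2, its calcium store (-0.15). Thick filament and M-band partners also had 0 of 13 called and 1 at an unadjusted p under 0.05, with 11 of 13 negative and a median of -0.07. Among them titin (Ttn), the giant spring of the sarcomere, was at -0.15 (edgeR adjusted p = 0.403) and Mybpc1, the slow myosin-binding protein C, at -0.02 (edgeR adjusted p = 0.894).

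Myosin heads need chaperones to fold, and 0 of 8 folding factors were called, with 3 at an unadjusted p under 0.05. All 8 were negative with a median of -0.06, including Hsp90ab1, a heat shock protein 90 (-0.01), and Smyd1, a muscle methyltransferase that binds myosin (-0.36, SE 0.13, edgeR adjusted p = 0.149). Smyd1 overlaps genes on the opposite strand. Of 32 regulators of heavy chain genes, 0 were called and 3 passed the unadjusted threshold, 14 were negative and 18 positive, and the median was 0.01. Mef2c, a muscle transcription factor, was at -0.26 (edgeR adjusted p = 0.274) and Purb, a repressor of heavy chain genes that overlaps another gene on the opposite strand, at 0.01 (edgeR adjusted p = 0.979).

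Of 14 genes of immature muscle, 0 were called and 6 passed the unadjusted threshold, with 9 negative, 5 positive and a median of -0.08. The most abundant, H19 and Igf2, are the imprinted pair of the edited locus, at 0.10 and 0.05. Smooth and non-muscle heavy chains had 0 of 4 called and 1 at an unadjusted p under 0.05, with a median of -0.03, and Myh9, the non-muscle chain IIA, was at -0.16 (SE 0.06, edgeR adjusted p = 0.188), as was Myh10, the non-muscle chain IIB (SE 0.08, edgeR adjusted p = 0.258).

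Marker genes of other cell types were summed because a dissection can hold them. The Schwann cell sum did not overlap between the groups, beside 12.8% of single tested genes (6.40% higher in ΔDMR1-U2). Schwann cell markers summed to 318 to 409 CPM in the ΔDMR1-U2 mice and 222 to 305 CPM in wild-type, with 6 of 6 positive, 0 called and 5 at an unadjusted edgeR p under 0.05. Over all tested genes, 21.3% passed that unadjusted threshold and 50.2% had a negative log2 fold change. White adipocyte markers summed to 225 to 535 CPM and 176 to 234 CPM, with 5 of 5 tested positive and ΔDMR1-U2 1B the highest. Cartilage markers summed to 37.0 to 626 CPM and 57.7 to 1367 CPM, with 6 of 6 negative. Fibroblast markers summed to 18196 to 23051 CPM and 21223 to 29614 CPM, and endothelial markers to 518 to 573 CPM and 541 to 579 CPM. Smooth muscle markers summed to 339 to 450 CPM and 439 to 498 CPM, macrophage markers to 253 to 290 CPM and 277 to 353 CPM, and red cell markers to 131 to 282 CPM and 195 to 804 CPM. Satellite cell markers summed to 199 to 220 CPM and 203 to 243 CPM. All of these sums but that of Schwann cells overlapped between the groups. No marker in any of 11 lists was called, and the part of these cells in the isoform values was not tested.

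Inside the groups, isoforms varied together to different degrees. Deviations of log2 CPM from the group means, over the 8 libraries, correlated at 0.931 for Myh6 and Myh7, 0.871 for Myh7 and Myh7b, 0.874 for Myh4 and Myh8, and 0.784 for Myh1 and Myh2. Myh3 ran against Myh8 (-0.486) and Myh2 (-0.542). These are descriptions over libraries that share one tissue and one scaling. Myh6 with Myh7 (91.7% identical bases) and Myh1 with Myh2 (91.0%) are also the pairs most alike in coding sequence. Other pairs went the other way. Myh7 and Myh7b, correlated at 0.871, were 71.7% identical, while Myh1 and Myh4, 90.1% identical, correlated at 0.490. The part of uncertainly assigned reads in these correlations was not tested. Among 9509 genes with a mean of at least 10 CPM, the 3 most like Myh3 were N6amt1 (0.966), Med27 (0.962) and Trappc10 (0.942). Those most like Myh8 were Art1 (0.949), Ighmbp2 (0.945) and Cdk9 (0.936). For Myh4 they were Map4k2 (0.980), Slc12a2 (0.950) and Eef1a2 (0.950). For Myh7 they were Naa40 (0.974), Myom3 (0.952), an M-band protein, and Slx4 (0.946). These are the highest of 9509 correlations over only 8 libraries, and how high the top values would run by chance was not tested.

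**Figure D5:**
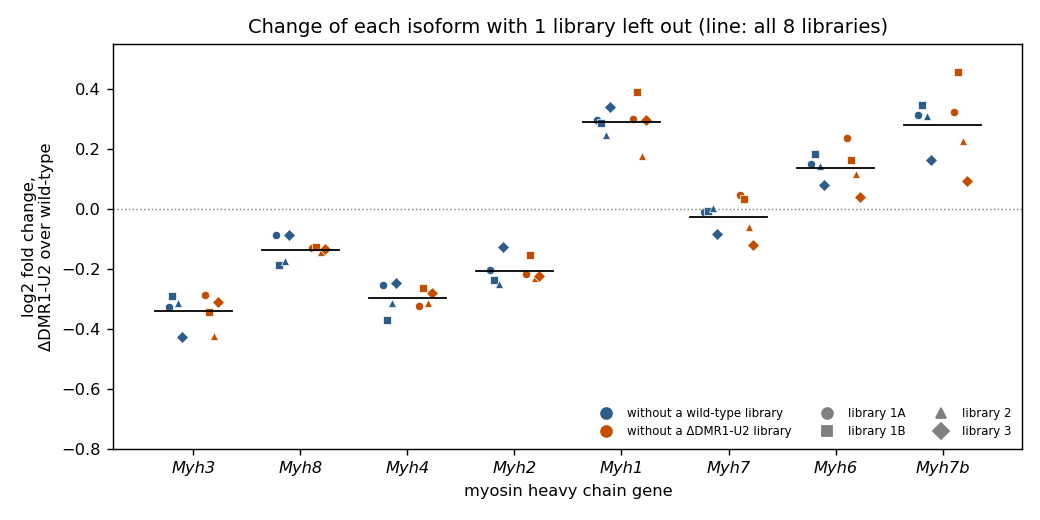
Log2 fold change of each isoform in edgeR with all libraries and with each of the 8 libraries left out in turn; the line is the value with all 8 and each point the value without 1 library. Myh3 stays between -0.43 and -0.29, Myh4 between -0.37 and -0.25 and Myh1 between 0.18 and 0.39, while Myh7 lies on both sides of 0.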

How the data were processed

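Ribosomal RNA was removed from the RNA of 8 muscle samples before paired-end sequencing, per the labels' protocols. Per the submitters' processing notes, TopHat2 2.0.9 and Bowtie2 2.1.0, HTSeq 0.5.4p3, FastQC 0.10.1 and DESeq2 1.4.5 were used with mm10. Their settings, the annotation and the strand setting are not stated in these sources. The deposited table holds raw counts per gene, the authors' mean normalised counts (a signal), the authors' fold ratio and log2 ratio of wild-type over ΔDMR1-U2, and the authors' p-values, per the file headers. Signs here run the other way, as ΔDMR1-U2 over wild-type. Ribosomal depletion keeps unspliced RNA, which can add to counts.

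The main test was that of edgeR 4.0.16 in R 4.3.3 (filterByExpr, minimum count 10, Benjamini-Hochberg over 15241 genes), with DESeq2 1.42.0 as an alternative. Biological variation between libraries had a coefficient of 12.3%. On simulated counts of 15132 genes for this comparison, edgeR recovered 70% of 1.5-fold, 98% of 2-fold and 100% of 3-fold changes. Among 200 calls, 16 were unchanged genes. The isoform changes were all smaller than 1.5-fold, with folds from 0.789 (Myh3) to 1.22 (Myh1). Changes of that size were not simulated, and neither were libraries that stand apart, so recovery for the isoforms is not known. Shares used raw counts and exact permutation tests in SciPy 1.17.1. Coding sequences came from GENCODE M21, aligned with MAFFT 7.526. From each list of related muscle genes, up to 2 called genes with the largest fold change were named, or otherwise the 2 with the highest mean CPM; cell type markers are given as sums and counts. Isoforms and lists were chosen with earlier results of these data known. Alternatives were other scalings, no filter, a replicate block and leaving out libraries.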

Additional observations from a re-analysis of the deposited data

Results flagged for a closer look

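A value far from the other 3 libraries of its group was found in 2 of 42 groups checked, where the gap to the nearest library divided by the range passed Dixon's critical value. That value lets some groups through by chance. Myh2 in ΔDMR1-U2 1B was 322 CPM, below 372 to 381 CPM in the other ΔDMR1-U2 libraries (gap over range 0.851). Myh7 in wild-type 3 was 416 CPM, below 487 to 494 CPM in the other wild-type libraries (0.907). ΔDMR1-U2 1B also had the highest summed adipocyte markers, and their part in the Myh2 value was not tested.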

How the results depend on the processing

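The number of genes called by edgeR moved from 172 to 930 with DESeq2, 684 with scaling to the summed isoforms (618 higher, 66 lower), 13 with the replicate block, and 16 without both ΔDMR1-U2 1A and 1B. Leaving out 1 library gave 7 to 631 calls, with 7 without ΔDMR1-U2 3 or wild-type 1A, 10 without wild-type 2, 20 without wild-type 1B, 22 without wild-type 3 and 631 without ΔDMR1-U2 2. Of 112 isoform fold changes recomputed under alternatives, 103 kept direction and side of the threshold. The Myh8 change was 0.029 when scaled to the summed isoforms. Myh7 was 0.12 under that scaling, 0.045 without ΔDMR1-U2 1A, 0.03 without ΔDMR1-U2 1B, 0.15 without both, and 0.0018 without wild-type 2, within -0.12 to 0.045 over the libraries left out. The Myh2 share difference was 0.00015 percentage points without ΔDMR1-U2 1B and 0.0016 without wild-type 3, within -0.0634 to 0.0016 over the libraries left out. The summed share of all counts differed by -0.394 percentage points on the CPM scale, -0.242 without both libraries and -0.336 to -0.191 without each. The Myh1 share differed by 0.379 percentage points without both libraries and 0.216 to 0.350 without each. With fewer libraries these exact tests cannot reach 0.05, the smallest p being 0.0571 for 4 against 3 and 0.133 for 4 against 2. Same-numbered samples did not deviate together (correlations -0.225 to -0.0513), so no pairing was assumed. With so few libraries, this check cannot show whether the labels mark a pairing. With the replicate block, the summed share (-0.268) and the Myh1 share (0.282) had the smallest exact p of 4 pairs, 0.125. The cause of each move was not tested.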
